A study of Mus musculus with 17 samples.

Results

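Spi1 encodes PU.1, a transcription factor of the ETS family, and its transcript was followed here through 17 RNA libraries of mouse bone marrow progenitors. The set was defined by name. It took the row with the Ensembl identifier of Spi1 (ENSMUSG00000002111.8) and any enhancer row whose name starts with that identifier. The deposited count table holds 96004 rows, of which 47643 are genes. Another 42055 rows join a gene identifier to the ending enh, and 6306 have that ending with no gene. Spi1 is 1 of the 47643 gene rows, and 0 of the 42055 named enhancer rows carry its identifier. Spi1 lies on the plus strand of chromosome 2, from 91082390 to 91115756 in GRCm38. GENCODE vM21 lists 4 transcripts for it, 3 of them protein coding. The authors did not place the enhancer rows on the genome in the sources used here, so a row without a gene name cannot be assigned to Spi1.

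PU.1 binds purine-rich DNA around a GGAA core and opens enhancers in myeloid and B cells. The dose of PU.1 matters in this tissue, since B cells and granulocytes form at lower levels of PU.1 than macrophages do. Much of that dose is set by the upstream regulatory element (URE), an enhancer several kilobases upstream of the Spi1 promoter. Mice without the URE keep a small part of their PU.1 and can develop acute myeloid leukaemia (AML). Tet2 is an enzyme that oxidises methylated cytosine, and its loss is common in clonal haematopoiesis.

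The cells were cKit+ Lymph- Ery- HSPC (haematopoietic stem and progenitor cells) sorted from bone marrow, and polyadenylated RNA was sequenced from a low input. The compound genotypes, both labelled AML, were URE het Tet2 KO (UREΔ/+;Tet2-/-, 3 libraries) and URE het Tet2 het (UREΔ/+;Tet2+/-, 2 libraries). The genotypes labelled Normal were URE het (UREΔ/+ with intact Tet2), Tet2 KO (Tet2-/-), Tet2 het (Tet2+/-) and wild type (WT), with 3 libraries each. All 5 AML libraries thus carry the URE deletion on 1 allele, as URE het does. No AML library has another genotype, so the effect of disease cannot be told apart from that of the compound genotype. The labels give the controls as age-matched but state no age, no Cre driver and no pooling. They do not say that libraries came from separate mice, so the p-values measure the spread between libraries.

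Gene counts came to 21.1 to 38.3 M per library. The library titles are numbered from 1 to 17. Numbers 8 to 17 (the late range here) hold 3 AML and 7 Normal libraries, and numbers 1 to 7 (the early range) hold 2 AML and 5 Normal libraries. The labels do not call these ranges batches. Kit, the receptor used in the sort, stood at 117 to 170 CPM in the AML libraries and at 99.97 to 187 CPM in the Normal ones. CPM are counts per 1 M gene reads after trimmed-mean (TMM) scaling of the libraries.

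Spi1 RNA differed widely among the AML libraries. In URE het Tet2 KO, replicate 1 had 2332 Spi1 reads (98.6 CPM), replicate 2 had 273 reads (7.83 CPM) and replicate 3 had 405 reads (12.2 CPM). In URE het Tet2 het, replicate 1 had 665 reads (21.6 CPM) and replicate 2 had 1643 reads (34.9 CPM). Of these 5, only URE het Tet2 KO replicate 1 lay within the span of the Normal libraries, 45.3 to 137 CPM. In these bulk samples fewer Spi1-rich cells and less Spi1 RNA per cell cannot be told apart.

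The Normal libraries fell into separate levels by title number rather than by genotype. URE het had 53.9 and 45.3 CPM in its late-range libraries and 90.9 CPM in the early-range one. Tet2 KO had 63.1 and 52.2 CPM in the late range and 137 CPM in the early range. Tet2 het showed the same split, with 54.1 and 60.6 CPM in the late range and 124 CPM in the early one. WT had 55.8 CPM in its late-range library and 106 and 122 CPM in the early-range ones. No late-range Normal library reached the lowest early-range one.

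**Figure D1:**
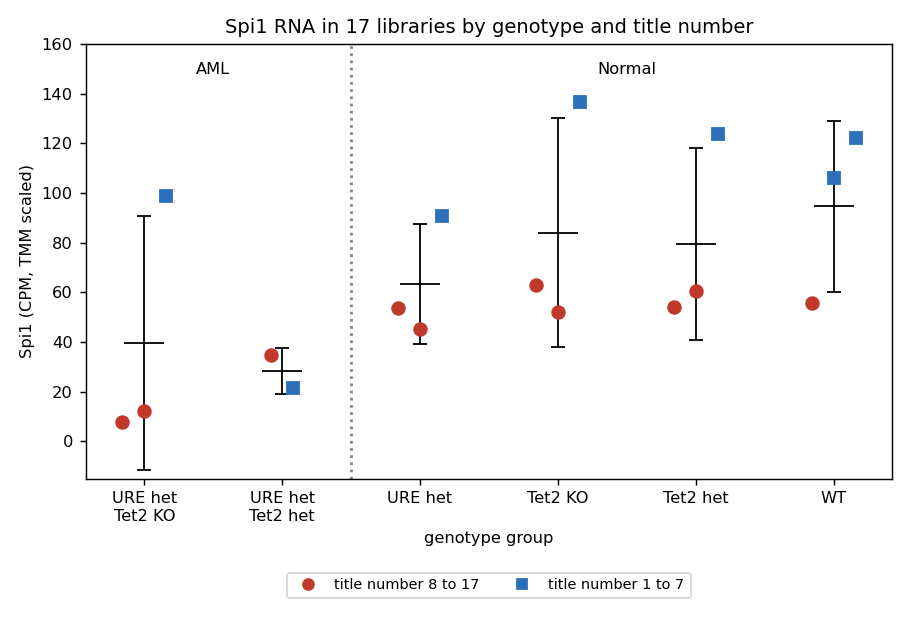
Spi1 RNA (y axis, TMM-scaled CPM) in each of the 17 libraries, by genotype group (x axis). Red circles are libraries numbered 8 to 17, blue squares those numbered 1 to 7; bars give the mean ± SD of each group (n = 3, or 2 for URE het Tet2 het). The Normal circles sit between 45.3 and 63.1 CPM and the Normal squares between 90.9 and 137 CPM.

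Over the 12 Normal libraries, with genotype in the model, Spi1 in the late range was at 47.7% of its early-range level. The Normal libraries averaged 55.0 ± 5.79 CPM in the late range (SD, n = 7) and 116 ± 17.7 CPM in the early range (SD, n = 5). The log2 fold change was -1.07 ± 0.09 (approximate SE, edgeR adjusted p = 4.44e-06), and it stayed between -1.13 and -1.01 when each library was left out in turn. In the same fit 36.4% of 18282 genes passed, 17.1% higher and 19.3% lower in the late range, so Spi1 shared this split with many genes. In the 5 AML libraries the range term for Spi1 was -1.88 ± 1.06 (adjusted p = 0.619, edgeR). There 0 genes passed, and 1735 had an unadjusted p under 0.05. What the title numbers stand for is not given in the labels, and the cause of the split was not tested.

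Once the split was set aside, Spi1 was steady among the Normal libraries. The SD of its log2 CPM was 0.58 over the 12 Normal libraries, at the 58.7th percentile of the genes tested. Within the title ranges it was 0.19, at the 18.4th percentile, against a median of 0.37 over all genes. The ranges accounted for 90.4% of the Spi1 variance in Normal. In the 5 AML libraries the SD was 1.41, at the 83.0th percentile, where the median gene had 0.67. Against genes of every level, Spi1 was thus among the more variable in AML and among the less variable within a range of Normal libraries. These measures are unlike, since the AML SD spans both title ranges and both compound genotypes. With the ranges kept in, Spi1 in Normal was at the 58.7th percentile. Its Normal mean lay at the 91.0th percentile of the genes tested. Its SD was not compared with that of genes of like level.

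Relative to the Normal mean of its own title range, Spi1 stood below 100% in all 5 AML libraries. URE het Tet2 KO replicates 1, 2 and 3 were at 85.1%, 14.2% and 22.3% of that mean. URE het Tet2 het replicates 1 and 2 were at 18.7% and 63.4%. The 12 Normal libraries lay between 78.4% and 118%. On this scale 4 of the 5 AML libraries were below every Normal library, and URE het Tet2 KO replicate 1 was inside the Normal span. The lowest Normal library of each range was a URE het one, replicate 1 at 78.4% in the early range and replicate 3 at 82.4% in the late range.

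The contrast of AML with Normal, as designed without a term for title number, did not pass for Spi1. Spi1 averaged 35.0 ± 37.0 CPM in AML (SD, n = 5) and 80.4 ± 33.4 CPM in Normal (SD, n = 12). The log2 fold change was -1.25 ± 0.52 (edgeR adjusted p = 0.135, unadjusted p = 0.0283), which puts AML at 42.0% of Normal. Of 19951 genes, 2188 (11%) passed this contrast, with 6.94% above and 4.02% below their Normal level. With title range as a term the estimate was nearly the same and its error smaller, at -1.30 ± 0.37 (edgeR adjusted p = 0.0303), in a fit where 18.4% of genes passed (10.6% higher, 7.78% lower). Leaving out URE het Tet2 KO replicate 1 gave -2.24 (edgeR adjusted p = 0.00094), and leaving out replicate 2 of that genotype gave -1.04 (edgeR adjusted p = 0.202). A permutation test on log2 CPM, added after the data were seen, gave a difference of -1.66 with an exact two-sided p of 0.00452, which is for this gene alone and not adjusted over genes. Permuting within title ranges gave -1.65 with an exact p of 0.000794.

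No pair of genotype groups differed in Spi1 past 0.05 in the edgeR fit of all 17 libraries. With voom, URE het Tet2 KO passed against WT (-3.03, adjusted p = 0.000645), URE het (-2.18, adjusted p = 0.00421) and Tet2 KO (-2.38, adjusted p = 0.00159). The log2 fold change against WT was -1.26 ± 0.73 in URE het Tet2 KO (edgeR adjusted p = 0.371) and -1.74 ± 0.86 in URE het Tet2 het (edgeR adjusted p = 0.390). Against the mutants with 1 altered gene the values were -0.68 (URE het Tet2 KO against URE het), -1.09 (URE het Tet2 KO against Tet2 KO), -1.16 (URE het Tet2 het against URE het) and -1.49 (URE het Tet2 het against Tet2 het). Their edgeR adjusted p ran from 0.473 to 0.731. All 6 of these compound comparisons were negative, and they share control libraries, so they do not count as separate evidence. These values turn on single libraries of URE het Tet2 KO, whose 3 Spi1 levels lie far apart. Leaving out replicate 1 gave -3.24 against WT, -2.66 against URE het and -3.06 against Tet2 KO (edgeR adjusted p = 0.00431, 0.0109 and 0.00635). Leaving out replicate 2 gave -0.78, -0.22 and -0.62 (edgeR adjusted p of 0.687 to 0.969), and leaving out replicate 3 gave -0.84, -0.27 and -0.68 (edgeR adjusted p of 0.689 to 0.952).

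The compound genotypes did not differ in Spi1 beyond the spread between libraries. URE het Tet2 KO averaged 39.6 ± 51.2 CPM (SD, n = 3) and URE het Tet2 het 28.3 ± 9.38 CPM (SD, n = 2). The log2 difference was 0.48 ± 0.82 (edgeR adjusted p = 0.853). Its sign turned to -0.11 with the range term and to -1.80 in the late-range libraries alone (edgeR adjusted p = 0.00283), where URE het Tet2 het has 1 library. The interaction, which asks whether the URE deletion changed Spi1 by another amount with Tet2 lost than with Tet2 intact, was -0.51 ± 1.02 for Tet2 KO and -0.91 ± 1.09 for Tet2 het (edgeR adjusted p = 0.953 and 0.823). In the late range alone the Tet2 KO interaction was -2.35 (edgeR adjusted p = 0.0139), with 1 WT library there.

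**Figure D2:**
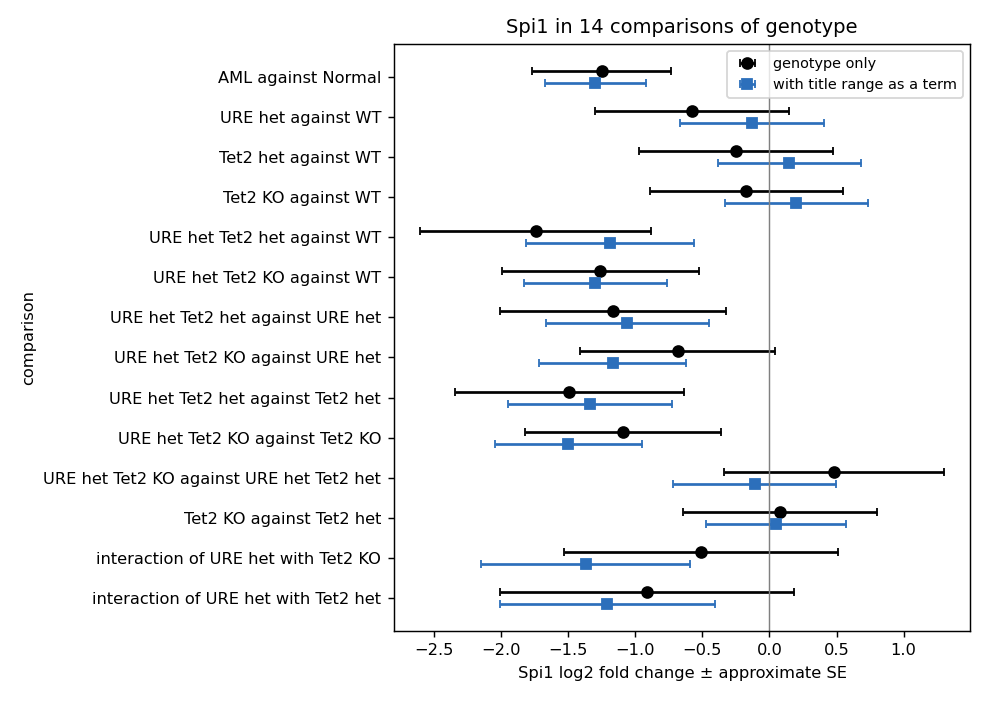
Spi1 log2 fold change (x axis, ± approximate SE) in 14 comparisons of genotype (y axis), first group over second. Black circles are the fit by genotype alone, blue squares the fit with title range as a term; of the 28 values, only AML against Normal with the range term passed an adjusted p of 0.05.

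Mutants of the URE alone or of Tet2 alone did not differ from WT in Spi1 past 0.05. In the fit of all groups the log2 fold change against WT was -0.58 ± 0.72 for URE het, -0.17 ± 0.72 for Tet2 KO and -0.25 ± 0.72 for Tet2 het (each edgeR adjusted p = 1). Title range was added as a term to a fit of the Normal libraries alone, after the data were seen, and this narrowed the errors. URE het was at 86.6% of WT, with a 95% interval of 69.9 to 107% (edgeR adjusted p = 0.488). Tet2 KO was at 110% of WT (88.8 to 136%) and Tet2 het at 106% of WT (85.7 to 131%). Tet2 KO was at 104% of Tet2 het, with an interval of 84.2 to 127%. These intervals cover 100%, and they do not show that the genotypes are equal.

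The genes around Spi1 were set beside it to compare it with the rest of its locus. GENCODE vM21 places 35 other genes within 500 kb, of which 24 passed the filter on low counts and 19 had at least 1 CPM. In AML against Normal 0 of the 24 passed in edgeR, where 11% of all genes did. At an unadjusted p under 0.05, 2 were higher and 4 lower, and 4 were called lower by DESeq2 and 3 by voom. Over all genes, in either direction, DESeq2 called 3255 and voom 1558, where edgeR called 2188. Shares of all genes by direction were not computed for these settings. The median log2 fold change of the 19 was -0.29, against 0.05 for all genes. With the range term, Gm13778, a transcript at 0.24 ± 0.12 CPM in AML and 0.08 ± 0.07 CPM in Normal, was called higher. Mtch2, a mitochondrial carrier, and Ckap5, a microtubule polymerase, were called lower at -0.51 and -0.78 (edgeR adjusted p = 0.0335 and 0.0468); both were named after their values had been seen.

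Within single AML libraries the neighbourhood was less even than this contrast. The median of the 19 neighbours, as a percentage of the Normal mean of the same range, was 115%, 48.3% and 56.6% in URE het Tet2 KO replicates 1, 2 and 3. In URE het Tet2 het replicates 1 and 2 it was 45.6% and 104%. In the 12 Normal libraries it stayed between 91.8% and 105%. The AML libraries with 7.83 to 21.6 CPM of Spi1 were thus also those with low neighbours. In each of the 5 AML libraries, at most 2 of the 19 neighbours stood below Spi1 on this scale.

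**Figure D3:**
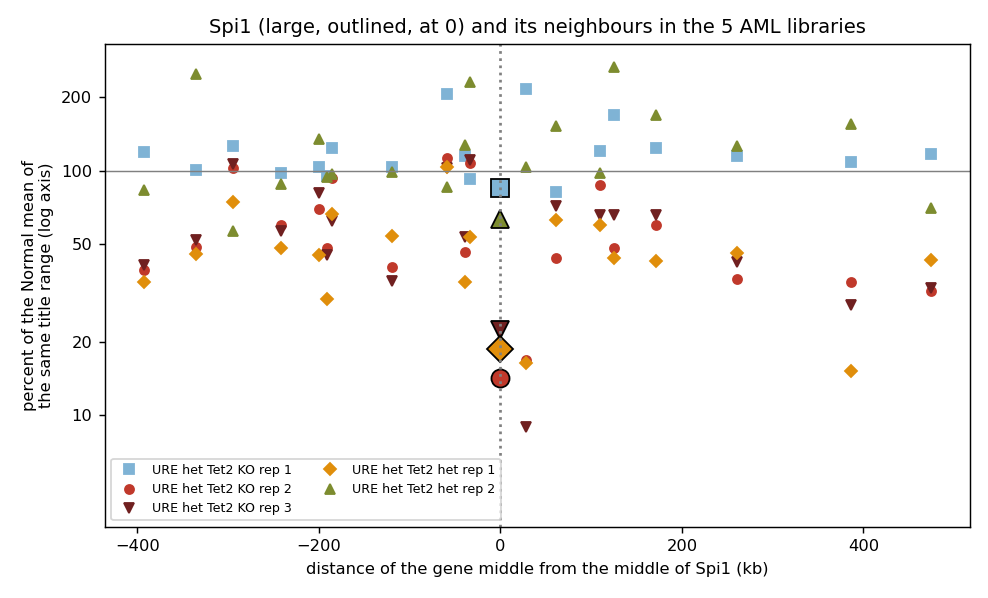
Level of 19 genes within 500 kb of Spi1 in the 5 AML libraries, as a percentage of the Normal mean of the same title range (y axis, log scale), by distance of the gene middle from the middle of Spi1 (x axis, kb). Each symbol is 1 library and Spi1 is the large outlined symbol at 0; it stands at 14.2 to 85.1%, and at most 2 neighbours lie under it in any library.

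Spi1 was low in AML also relative to these neighbours. The ratio of Spi1 to the neighbour median was 73.9%, 29.5% and 39.4% in URE het Tet2 KO replicates 1, 2 and 3. It was 40.9% and 61.0% in URE het Tet2 het replicates 1 and 2, and 78.3 to 118% in the 12 Normal libraries. All 5 AML libraries lay below all 12 Normal libraries, URE het Tet2 KO replicate 1 included. In that library Spi1 was at 85.1%, inside the Normal span, and the neighbours were at 115%. The lowest Normal ratios, 78.3% and 79.2%, were those of URE het replicates 1 and 3, which carry the same URE deletion. Taken as log2 CPM of Spi1 less the median deviation of the neighbours from their Normal means, this ratio differed by -1.13 between AML and Normal (exact two-sided permutation p = 0.00953). Within title ranges the difference was -1.11 (exact p = 0.000397, the smallest these permutations can give). When each library was left out in turn it ran from -1.47 to -0.88, with exact p from 0.0022 to 0.0401. This ratio was chosen after the Spi1 values had been seen, and library scaling cancels in it.

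Among the genes within 100 kb, 10 passed the filter. Celf1, an RNA-binding splicing regulator, was at -0.57 ± 0.22 in AML against Normal (log2, edgeR adjusted p = 0.104). Psmc3, a proteasome subunit, was at -0.40, Madd, a guanine nucleotide exchange factor for Rab proteins, at -0.24, and the lysosomal phosphatase Acp2 at -0.23. Slc39a13, a zinc transporter, was at 0.17, Ddb2, a DNA damage sensor, at 0.28, and Rapsn, a scaffold of the neuromuscular junction, at 0.30. Nr1h3 (the oxysterol receptor LXRα) stood at 0.72 ± 0.52 CPM in AML and 0.26 ± 0.18 CPM in Normal (log2 fold change 1.46, edgeR adjusted p = 0.144). Besides Celf1, the edgeR adjusted p of Gm13778 was 0.0609, and that of the others was at least 0.144.

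Mybpc3, a gene of the cardiac sarcomere, starts 2388 bases after the end of Spi1 on the same strand. It was at 216%, 16.9% and 8.92% of the Normal mean of its range in URE het Tet2 KO replicates 1, 2 and 3. In URE het Tet2 het replicates 1 and 2 it was at 16.4% and 104%. The AML libraries lowest in Spi1 were the lowest in Mybpc3 too, while the Normal libraries ran from 32.7 to 238%. Mybpc3 averaged 1.36 ± 1.76 CPM in AML (SD, n = 5) and 1.82 ± 1.03 CPM in Normal (SD, n = 12), with a log2 fold change of -0.50 ± 0.69 (edgeR adjusted p = 0.705).

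Although no enhancer row carries the identifier of Spi1, 1 row without a gene name is listed directly after it. Gene rows follow genome order in the table: 47050 of 47202 adjacent pairs on 1 chromosome (99.7%) stand in order of their start. Of all gene rows, 24.5% have at least 1 enhancer row of their own. The row after Spi1 stands before the row of Mybpc3; it has no coordinates, was chosen after the data were seen, and is not a member of the set. Its distance from Spi1 is unknown.

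The unnamed row was lowest in the libraries that were lowest in Spi1. In URE het Tet2 KO it had 11.2, 1.18 and 1.78 CPM in replicates 1, 2 and 3, and URE het Tet2 het 2.93 and 6.07 CPM in replicates 1 and 2. The 12 Normal libraries ran from 4.91 to 12.5 CPM with no gap between title ranges, unlike Spi1. The row averaged 4.63 ± 4.13 CPM in AML (SD, n = 5) and 8.13 ± 2.52 CPM in Normal (SD, n = 12). The log2 fold change was -0.79 ± 0.40 (edgeR adjusted p = 0.308), in a fit where 3.89% of 22307 enhancer rows passed (2.82% higher, 1.06% lower). With URE het Tet2 KO replicate 1 left out it was -1.62 (edgeR adjusted p = 0.00201).

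The row was also set against the reads of Spi1 itself. It had 11.4, 15.02 and 14.6 reads per 100 Spi1 reads in URE het Tet2 KO replicates 1, 2 and 3, and 13.5 and 17.4 in URE het Tet2 het replicates 1 and 2. Normal libraries had 14.3 ± 3.55 in the late range (SD, n = 7) and 7.30 ± 2.40 in the early range (SD, n = 5). The log2 ratio differed by 0.45 between AML and Normal (exact two-sided permutation p = 0.161) and by 0.44 within title ranges (exact p = 0.0635). Between the late and the early range of Normal libraries it differed by 1.00 (exact p = 0.00379). Of the 13 enhancer rows listed from Celf1 to Acp2, 11 passed the filter and 0 the test in edgeR. At an unadjusted p under 0.05 there were 4, all lower, and DESeq2 called 1 lower and voom 3. The shares of all enhancer rows under these settings were not computed.

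**Figure D4:**
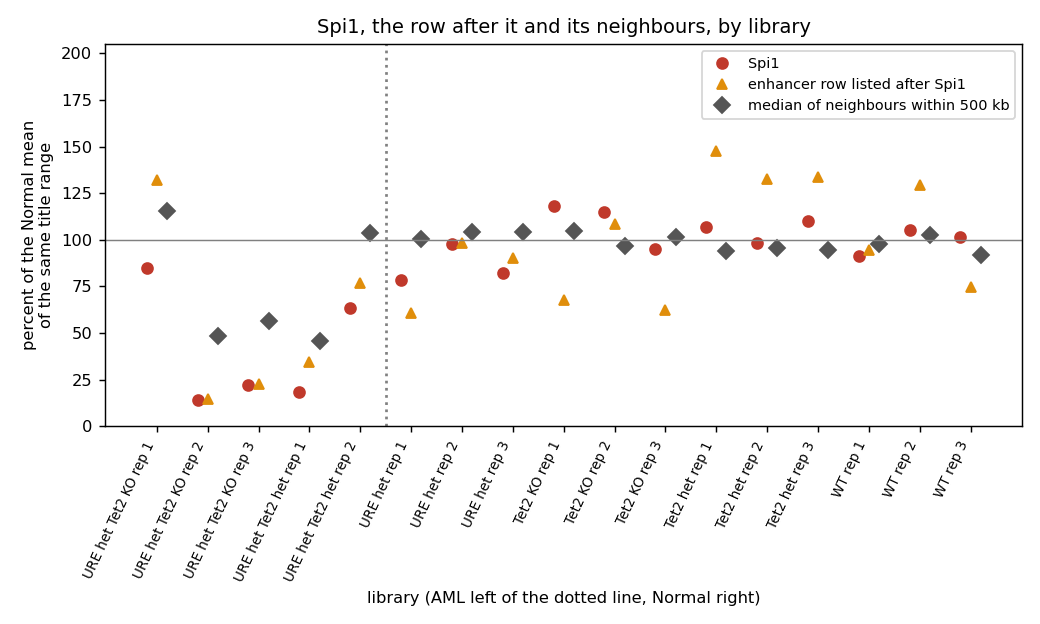
Spi1 (red circles), the enhancer row listed after it (orange triangles) and the median of 19 neighbouring genes (grey diamonds) in each library (x axis), as a percentage of the Normal mean of the same title range (y axis). AML libraries stand left of the dotted line; in URE het Tet2 KO replicates 2 and 3 and URE het Tet2 het replicate 1, Spi1 is at 14.2 to 22.3% and the neighbours at 45.6 to 56.6%.

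Among the AML libraries, the markers Cd34 and Igll1 set those lowest in Spi1 apart from the others. Cd34, a surface marker of stem and progenitor cells, was at 10.1, 0.545 and 0.393 CPM in URE het Tet2 KO replicates 1, 2 and 3. In URE het Tet2 het replicates 1 and 2 it was at 0.065 and 73.6 CPM, and in Normal libraries at 59.4 to 145 CPM. Igll1, part of the surrogate light chain of early B cells, was at 0.254, 241.1 and 124 CPM in URE het Tet2 KO and at 96.9 and 0.297 CPM in URE het Tet2 het, in the same order. The libraries at 7.83 to 21.6 CPM of Spi1 were therefore those with Cd34 under 1 CPM and Igll1 at 96.9 CPM or more, a pattern picked out after the values had been seen. Other members of the same lists did not all split this way. In the same order, Flt3, listed with Cd34, was at 23.4, 67.5 and 8.95 CPM, and at 30.6 and 43.6 CPM. Cd79b, listed with Igll1, was at 6.30, 0.086 and 0.605 CPM, and at 0.065 and 7.18 CPM, low where Igll1 was high.

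Over whole marker lists, the summed level of 7 neutrophil genes was 10379 to 32734 CPM in AML and 25064 to 89558 CPM in Normal, with 5 of 7 called lower (over all genes 4.02% were called lower and 6.94% higher). Monocyte genes summed to 492 to 2314 CPM in AML and 420 to 1183 CPM in Normal, with 1 of 6, Ccr2, called lower. Ly6c2 made up most of the monocyte sum in every library and was not called higher, so this sum mainly follows a single gene. B cell genes summed to 6.81 to 244 CPM in AML and 7.62 to 26.0 CPM in Normal, with 1 of 8 called higher and 4 lower. Igll1 made up most of the highest sums: the other 7 B cell genes summed to 1.45 to 8.20 CPM in AML (median 2.38) and 6.89 to 25.7 CPM in Normal (median 11.7). Mast cell, basophil and eosinophil genes summed to 19.6 to 99.7 CPM in AML and 100.3 to 275 CPM in Normal, with 5 of 7 called lower. Progenitor genes summed to 531 to 1164 CPM in AML and 592 to 935 CPM in Normal, with 0 of 6 called in edgeR (2 lower at an unadjusted p under 0.05, and by DESeq2 1 and voom 2). Megakaryocyte genes summed to 0.746 to 33.7 CPM in AML and 15.1 to 34.6 CPM in Normal (2 of 5 called lower), dendritic cell genes to 30.3 to 138 and 67.9 to 206 CPM (3 of 6 lower), T and NK cell genes to 18.8 to 92.4 and 59.7 to 152 CPM (1 of 6 lower), and erythroid genes to 1.97 to 18.6 and 2.99 to 62.2 CPM (0 of 9 called in edgeR, 2 lower at an unadjusted p under 0.05, 1 by DESeq2 and 0 by voom). Nkg7 likewise made up most of the T and NK cell sum in every library. No marker was at 0 in all 5 AML libraries. For the counts at an unadjusted p, by DESeq2 and by voom, shares of all genes by direction were not computed. The part of the markers in the Spi1 values was not tested.

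The genes whose level followed Spi1 most closely among the Normal libraries were sought with the mean of each title range removed. Among 5840 genes averaging 4 log2 CPM or more, the 10 highest had Pearson r of 0.81 to 0.90 and Spearman rho of 0.76 to 0.92 with Spi1 across the 12 libraries. They were Ear2, a ribonuclease of eosinophils (r = 0.90), Ifnar2, a chain of the type I interferon receptor (0.89), Chil3, a chitinase-like protein of myeloid cells (0.88), Peg13, an imprinted noncoding RNA (0.86), and Pip4k2a, a phosphoinositide kinase (0.84). The others were the actin-severing protein Gsn, the mitochondrial protease Oma1, the kinase Pak1, the phosphoinositide 3-kinase subunit Pik3r5 and the zinc finger protein Zfp746. The 5 lowest were Npm3, Atp9b, Tpi1, Eml5 and Ecd, with r between -0.83 and -0.78. With the 2 libraries farthest from the Spi1 median left out, r among the 10 highest was 0.45 for Pak1 and 0.68 to 0.86 for the others. Genotype was not removed before ranking. With 12 libraries and 5840 genes such values describe these libraries. Of the 10, 0 were kept when the range means were not removed, and 3 to 9 were kept when 1 library was left out.

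In AML against Normal, the genes most like Spi1 had a median log2 fold change of -0.88, against 0.05 for all genes tested. AML values played no part in their choice, but the Normal libraries, the reference here, did. Only genes averaging 4 log2 CPM or more in Normal were ranked, so genes low in Normal could not enter. The shares below are over all genes tested and not over the 5840 ranked, so this lean is no independent support. Of the 10, 3 were called lower and 0 higher in edgeR, where 4.02% and 6.94% of all genes were. At an unadjusted p under 0.05, 6 were lower and 1 higher, while DESeq2 called 3 lower and 1 higher, and voom 4 and 0. Shares of all genes by direction were not computed for these settings. Ear2 averaged 1.11 ± 1.25 CPM in AML (SD, n = 5) and 23.6 ± 13.7 CPM in Normal (SD, n = 12), at -4.28 ± 0.73 (edgeR adjusted p = 0.00269). Pak1 averaged 30.9 ± 20.2 CPM in AML and 89.3 ± 22.8 CPM in Normal, at -1.46 ± 0.31 (edgeR adjusted p = 0.00928), and Peg13 was at -0.76 ± 0.21 (edgeR adjusted p = 0.0294). With the range term 5 were called lower and 1, Zfp746, higher (7.78% and 10.6% of all genes in that fit). Among the 5 least like Spi1, Eml5 averaged 80.6 ± 34.4 CPM in AML and 36.2 ± 8.76 CPM in Normal and was called higher (1.17 ± 0.24, edgeR adjusted p = 0.00866). Ear2 is also a gene of eosinophils, a class whose markers were lower in AML.

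Spi1 has close relatives in the ETS family, which share its DNA-binding domain. Of 26 family members listed, 19 passed the filter, with 2 called lower and 0 higher in AML against Normal in edgeR (2 higher at an unadjusted p under 0.05, 0 by DESeq2 and by voom). Over all genes 4.02% were called lower and 6.94% higher, and the median log2 fold change of the family was -0.11. With the range term 4 were called lower and 0 higher (7.78% and 10.6% of all genes in that fit). Spib, the relative of PU.1 in B cells and plasmacytoid dendritic cells, ran from 0.065 to 0.594 CPM in AML and from 0.256 to 3.02 CPM in Normal. Its log2 fold change was -2.18 ± 0.50 (edgeR adjusted p = 0.0135). Spic, the relative in red pulp macrophages, ran from 0 to 0.382 CPM in AML and from 0.0309 to 1.84 CPM in Normal, at -2.03 ± 0.75 (edgeR adjusted p = 0.0961). Etv5 averaged 1.33 ± 0.88 CPM in AML and 3.73 ± 1.02 CPM in Normal and was called lower (-1.47 ± 0.36, edgeR adjusted p = 0.0174). The 3 factors of the PU.1 subfamily thus had estimates of -1.25 (Spi1), -2.18 (Spib) and -2.03 (Spic), of which only Spib passed in this fit.

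Among 18 partners and antagonists of PU.1, 3 were called higher and 1 lower in AML (6.94% and 4.02% of all genes), with a median log2 fold change of -0.01. With the range term 3 were called higher and 3 lower (10.6% and 7.78% of all genes in that fit). Gfi1, a repressor that opposes PU.1 in granulocyte precursors, ran from 64.2 to 160 CPM in AML and from 25.6 to 64.5 CPM in Normal (1.31 ± 0.20, edgeR adjusted p = 0.00144). Cebpa, the granulocyte and monocyte factor that works beside PU.1, ran from 13.4 to 110 CPM in AML and from 12.1 to 32.7 CPM in Normal (1.70 ± 0.37, edgeR adjusted p = 0.0101). Irf4, which binds DNA together with PU.1 in lymphoid cells, ran from 0.0423 to 0.531 CPM in AML and from 0.433 to 5.06 CPM in Normal (-2.57 ± 0.45, edgeR adjusted p = 0.00346). Tet2 was called higher (0.55 ± 0.14, edgeR adjusted p = 0.0261), at 112 to 234 CPM in AML and 80.2 to 176 CPM in Normal. In the genotypes labelled Tet2-/-, its RNA was at 112, 113 and 176 CPM in URE het Tet2 KO and at 80.2, 81.0 and 86.3 CPM in Tet2 KO. The part of the gene that the allele removes is not given in the labels, so a count over the whole gene does not check it.

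Of 18 genes known to regulate Spi1, 2 were called higher, Cebpa and Gfi1 again, and 0 lower in edgeR without the range term. Over all genes 6.94% and 4.02% were. At an unadjusted p under 0.05, 3 were lower, with 1 by DESeq2 and 0 by voom, and the median was -0.04. With the range term 2 were called higher and 2 lower (10.6% and 7.78% of all genes in that fit). The lower ones were Cbfb (-0.58, edgeR adjusted p = 0.0363) and Nfkb1 (-0.45, edgeR adjusted p = 0.0120). Runx1, which binds the URE, stood at 87.3 to 362 CPM in AML and 135 to 178 CPM in Normal (0.40 ± 0.24, edgeR adjusted p = 0.303). Fli1, an ETS factor that also acts at the URE, stood at 69.6 to 198 CPM in AML and 103 to 155 CPM in Normal (0.12 ± 0.18, edgeR adjusted p = 0.726). Runx1, Fli1, Cbfb and Nfkb1 were named after their values had been seen.

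More PU.1 target genes were called lower than higher in AML, in a list written with earlier results of these data known. Of 48 listed targets, all of which passed the filter, 12 were called lower and 2 higher in AML (4.02% and 6.94% of all genes), and the median log2 fold change was -0.66, against 0.05 over all genes. With the range term 19 were called lower and 3 higher (7.78% and 10.6% of all genes in that fit). Several of the lower ones are genes of B cells and of antigen presentation. Cd22, an inhibitory receptor of B cells, was at -2.28 ± 0.36 (edgeR adjusted p = 0.00186). It ran from 0.029 to 3.42 CPM in AML, with a median of 0.060, and from 0.696 to 5.32 CPM in Normal. Cd22 was thus not low in every AML library, since its highest AML value lay above the Normal median of 1.66 CPM. Cd74, the invariant chain of MHC class II, was at -4.08 ± 0.69 (edgeR adjusted p = 0.00258). Ebf1, the factor that commits cells to the B lineage, ran from 0 to 0.34 CPM in AML, with a median of 0, and from 0.233 to 3.35 CPM in Normal (edgeR adjusted p = 0.00252). The interleukin 7 receptor Il7r was at -2.68 ± 0.60 (edgeR adjusted p = 0.0117).

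Myeloid targets were mixed. Laptm5, a lysosomal protein of blood cells, ran from 111 to 206 CPM in AML and from 207 to 276 CPM in Normal (-0.69 ± 0.14, edgeR adjusted p = 0.00756). The chemokine receptor Ccr2 ran from 17.1 to 49.4 CPM in AML and from 55.5 to 157.6 CPM in Normal (-1.21 ± 0.28, edgeR adjusted p = 0.0141). The targets called higher were Fcgr2b, an inhibitory Fc receptor, at 0.76 ± 0.18 (edgeR adjusted p = 0.0166), and the granule protease Ctsg at 0.99 ± 0.27 (edgeR adjusted p = 0.0311). Csf1r, the macrophage colony-stimulating factor receptor and a classical PU.1 target, stood at 10.9 to 73.8 CPM in AML and 25.6 to 55.4 CPM in Normal (0.04 ± 0.32, edgeR adjusted p = 0.951). Csf1r and the 2 targets that were called higher were named after their values had been seen. The levels of neutrophil markers and of the 7 B cell markers other than Igll1, given above, were also lower in AML, and their part in this list was not tested. Cd79a, Cd79b and Ebf1 are in both the B cell markers and the targets, so these lists are not separate.

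**Figure D5:**
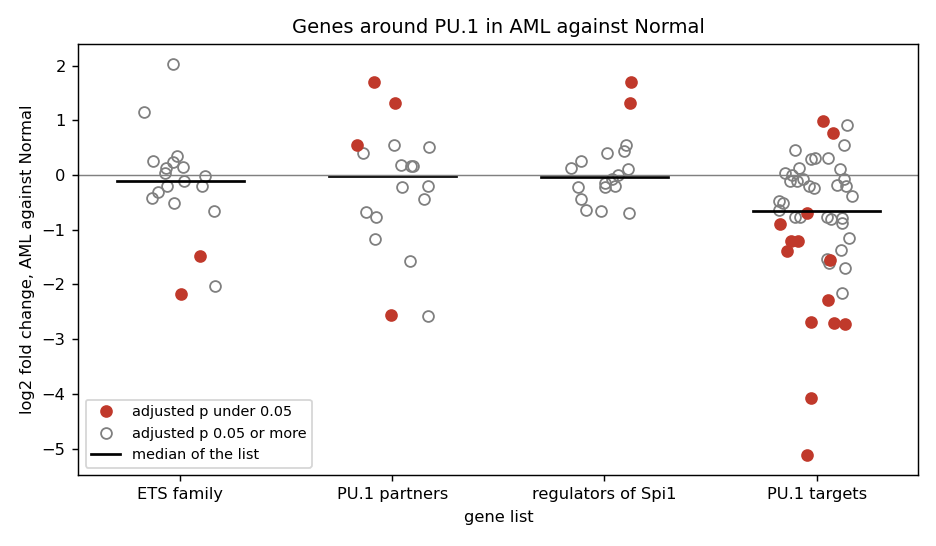
Log2 fold change in AML against Normal (y axis) for the tested members of 4 gene lists (x axis). Filled red circles passed an edgeR adjusted p of 0.05 and open circles did not; black lines are list medians, which are -0.11 for the ETS family, -0.01 for PU.1 partners, -0.04 for regulators of Spi1 and -0.66 for PU.1 targets.

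More of these targets were called lower than higher in the late range of the Normal libraries as well, where Spi1 itself was at 47.7% of its early-range level. Of the 48, 21 were called lower and 2 higher in the late range (19.3% and 17.1% of all genes), and the median log2 fold change was -0.48, against 0.03 over all genes. Of the 18 partners, 10 were called lower and 1 higher, and of the 18 regulators 8 lower and 4 higher. Csf2ra, a chain of the GM-CSF receptor, was at -1.80 in the late range (edgeR adjusted p = 1.52e-06), and in AML against Normal at -0.07 (edgeR adjusted p = 0.952). Itgam, the integrin CD11b, was at -1.88 in the late range (edgeR adjusted p = 0.000744) and at -1.70 in AML against Normal (edgeR adjusted p = 0.169). Csf2ra and Itgam were chosen after their values had been seen. Cd22, Cd74, Ebf1 and Il7r, which were called lower in AML, were at 0.14, -0.54, -0.09 and -0.24 in the late range. They did not pass there (edgeR adjusted p of at least 0.375).

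Promoters of the targets were searched for a strong PU.1 site, GAGGAAGT on either strand, in RefSeq promoters of GRCm38.p6 (250 bases before to 50 after the gene start). Of all 32851 promoters 3.20% hold it, and of 27025 genes with a promoter 3.69%. A promoter was at hand for 34 of the 48 targets, and 6 of them (17.6%) hold the motif: Ctss, Elane, Prtn3, Mpo, Cd53 and Vav1. It is found in 1 of 10 targets that were lower in AML (Ctss) and in 5 of 24 others. None of 9 promoters of the genes most like Spi1 holds it, nor do those of Spib and Spic. The promoter of Spi1 is not in the table used. Those of Ctss and Elane are shown, in the direction of transcription with the motif in capitals, because they carry the same letters and had log2 fold changes of opposite sign in AML; they were chosen after their values had been seen. Ctss (chr3:95526536-95526835, plus strand), a lysosomal protease of antigen presentation, holds the motif on the opposite strand, starting 2 bases before the gene start; Elane (chr10:79886062-79886361, plus strand), neutrophil elastase, holds it 85 bases before the start.
Ctss: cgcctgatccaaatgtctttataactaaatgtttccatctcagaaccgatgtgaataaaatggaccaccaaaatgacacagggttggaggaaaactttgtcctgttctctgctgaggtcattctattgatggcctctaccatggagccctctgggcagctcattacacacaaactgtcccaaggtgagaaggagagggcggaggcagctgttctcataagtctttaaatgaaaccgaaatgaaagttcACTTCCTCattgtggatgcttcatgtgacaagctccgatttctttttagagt
Elane: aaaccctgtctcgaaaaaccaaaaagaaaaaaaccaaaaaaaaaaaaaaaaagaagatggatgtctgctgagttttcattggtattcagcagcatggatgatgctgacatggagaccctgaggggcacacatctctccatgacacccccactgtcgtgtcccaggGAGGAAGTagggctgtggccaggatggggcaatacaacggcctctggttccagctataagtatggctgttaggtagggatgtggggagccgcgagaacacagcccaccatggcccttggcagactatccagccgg

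Ctss ran from 7.82 to 17.3 CPM in AML and from 13.6 to 41.2 CPM in Normal and was called lower (-0.89 ± 0.24, edgeR adjusted p = 0.0283). Elane ran from 441 to 1953 CPM in AML and from 193 to 912 CPM in Normal, and its log2 fold change of 0.91 ± 0.33 did not pass (edgeR adjusted p = 0.0946). Prtn3, Mpo, Cd53 and Vav1 had log2 fold changes between -0.20 and 0.31 (edgeR adjusted p of at least 0.426). A match of letters describes these windows and says nothing on binding in these cells.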

How the data were processed

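Per the labels' protocols, cKit+ Lymph- Ery- cells were purified by flow cytometry, RNA was extracted with the RNeasy Micro kit and polyadenylated RNA was sequenced from a low input. The authors deposited 1 table of raw counts per row, without normalization. Per the submitters' processing notes, reads were aligned with STAR to GRCm38. Versions, the gene annotation, strand handling and the tool that counted reads are not given in the sources used here.

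Gene counts were scaled by TMM, filtered with filterByExpr (minimum count 10, minimum total 15) and tested with edgeR 4.0.16 (R 4.3.3, robust quasi-likelihood F test) with 1 mean for each of 6 genotype groups. AML against Normal sets the mean of the 2 compound groups against that of the 4 others. P-values are two-sided and were adjusted by Benjamini-Hochberg over all genes tested, at 0.05. The SE is approximate, the size of the change over the root of F. The code was tested on simulated data. Title range was tested in the 12 Normal libraries with genotype as a covariate. Enhancer rows were fitted together, with library sizes from the gene rows; the test planned for enhancer rows of Spi1 did not apply, as none carries its identifier, and the row listed after Spi1 was added after the data were seen. Log2 CPM used a prior count of 0.5, and ratios added 0.5 to counts. Symbols and positions came from GENCODE vM21, which matched 47224 gene rows by identifier without version; promoters came from RefSeq.

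Alternatives were DESeq2 1.42.0, its size factors in edgeR, limma 3.58.1 voom with quality weights, no filter, non-robust edgeR, a title range term, libraries 8 to 17 alone, and each library left out. List counts by DESeq2, voom or unadjusted p stand without shares of all genes by direction, which were not computed. Genes are named by rule: Spi1, the 10 most and 5 least like it in Normal (predicted, clone-named, immunoglobulin, T cell receptor, pseudogene, Xist and Y-linked genes left out), Spib and Spic, neighbours within 100 kb, and up to 6 called members of each list by smallest p; others are marked where named. The members and lists were chosen with earlier results of these data known.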

Additional observations from a re-analysis of the deposited data

How the results depend on the processing

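Spi1 in AML against Normal kept its negative sign in every alternative run, but its side of 0.05 moved. It passed with DESeq2 (-1.28, adjusted p = 0.0416), voom (-1.90, adjusted p = 0.0162), the range term (-1.30) and libraries 8 to 17 alone (-1.56, edgeR adjusted p = 0.00137). The exact permutation tests of Spi1 alone gave -1.66 and -1.65 with unadjusted p of 0.00452 and 0.000794, beside an unadjusted edgeR p of 0.0283. Leaving out 1 library gave -2.24 to -1.04, and passed in 1 of 17 fits, the one that left out URE het Tet2 KO replicate 1. The cause of these shifts was not tested.

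The number of genes called in AML against Normal, 2188, was 3664 with the range term and 4307 in libraries 8 to 17, and 845 (without URE het Tet2 het replicate 1) to 3998 (without URE het Tet2 KO replicate 1) when 1 library was left out. URE het Tet2 KO passed against WT, URE het and Tet2 KO with voom (-3.03, -2.18 and -2.38) and in libraries 8 to 17 (-2.48, -2.30 and -2.53). Left-out libraries gave -3.24 to -0.78, -2.66 to -0.22 and -3.06 to -0.54. Against URE het Tet2 het its sign turned with voom (-1.18), the range term (-0.11) and libraries 8 to 17 (-1.80), with left-out libraries at -1.49 to 1.01. Tet2 het against WT turned to 0.15 (range term), 0.039 (8 to 17) and 0.084 (12 Normal libraries), and Tet2 KO against WT to 0.20, 0.047 and 0.13 in the same fits and -0.71 to 0.079 with libraries left out. Tet2 KO against Tet2 het ran from -0.46 to 0.55. The Tet2 KO interaction passed in libraries 8 to 17 (-2.35) and ran from -2.49 to 0.034. The row after Spi1 passed with voom (-1.49) and ran from -1.62 to -0.55. Of the 10 genes most like Spi1, 0 were kept without removing range means, and 3 to 9 with libraries left out.

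The split of Spi1 by title range passed in all 5 other alternatives and all 12 fits without 1 library. The comparisons of URE het with WT, and of URE het Tet2 het with WT, URE het and Tet2 het, passed in no alternative. No paired analysis was possible because the replicate numbers were given in accession order and pair nothing. The lowest Spi1 count was 273 reads; depth was not varied.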
